A study of Mus musculus with 6 samples.

Results

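Avp, Oxt, Crh, Trh, Ghrh and Sst encode the precursors of vasopressin, oxytocin and 4 hypothalamic hormones that act on the anterior pituitary. The 6 genes were taken by their symbols from a table of 50559 genes, and all 6 had enough counts to be tested, among 20257 tested genes in all. RNA-seq was done on hypothalamus in 3 libraries labelled as SRC-1 knockout and 3 labelled as wild type. SRC-1, steroid receptor coactivator 1, is the product of Ncoa1 and helps nuclear receptors to activate transcription. Strain, sex, age, the form of the deletion and whether any Cre or inducible system was used are not given in the labels. Nothing in the labels ties each library to its own animal, so p-values measure the spread between these libraries, which may be technical.

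Vasopressin and oxytocin are made by large neurons of the paraventricular and supraoptic nuclei and released into the blood from the posterior pituitary, and vasopressin is also made in the suprachiasmatic nucleus, the seat of the circadian clock. Corticotropin-releasing hormone (Crh) and thyrotropin-releasing hormone (Trh) come from small neurons of the paraventricular nucleus, growth hormone-releasing hormone (Ghrh) from the arcuate nucleus, and somatostatin (Sst), which holds back growth hormone release, from the periventricular nucleus and many other sites of the brain. Each is cut from a longer precursor and is known to respond to the state of the animal, such as dehydration, stress, cold or growth hormone feedback.

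Oxt (chromosome 2, 130416432 to 130418974, plus strand, GRCm39) and Avp (chromosome 2, 130422540 to 130424508, minus strand) are neighbours, with 3565 bases between them, and arose from 1 ancestral gene. Exon 2 of each gene, wholly coding, encodes the central part of neurophysin, the carrier protein cut from the same precursor. The 2 exons are shown because their likeness bears on how reads were counted. They are chr2:130418511-130418712 on the plus strand for Oxt and chr2:130422976-130423177 on the minus strand for Avp, both in GRCm39, and capitals mark the bases that differ.

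Avp: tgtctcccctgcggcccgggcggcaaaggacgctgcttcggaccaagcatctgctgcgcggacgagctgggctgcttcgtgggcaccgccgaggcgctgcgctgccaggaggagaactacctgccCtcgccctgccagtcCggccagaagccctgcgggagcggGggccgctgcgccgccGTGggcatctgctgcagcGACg

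Oxt: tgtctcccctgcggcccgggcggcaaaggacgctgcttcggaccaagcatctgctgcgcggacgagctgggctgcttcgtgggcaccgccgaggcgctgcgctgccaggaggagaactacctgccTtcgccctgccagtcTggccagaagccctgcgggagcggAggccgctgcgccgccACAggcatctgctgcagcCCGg

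The exons have 202 bases each, of which 193 were identical (95.5%) and 9 differed, and the longest identical run had 125 bases. A read that lies wholly inside that run matches both genes, and the counting command set no option that keeps reads with several matches. The read length is not given in the sources used here, and the share of reads lost this way was not measured, so the counts of Avp and Oxt are uncertain to that extent. No exon of Avp, Oxt, Trh, Ghrh or Sst overlapped an exon of another gene in the table, while 41 bases of Crh (3.11% of its exons) were shared with Gm42189 on the opposite strand.

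Upstream sequence is shown because SRC-1 acts through nuclear receptors, many of which bind copies of the letters AGGTCA. RefSeq windows (GRCm38.p6) were found for 5 of the 6 genes, all but Crh, with 2 windows for Ghrh, and the 250 bases before each start were searched on both strands. The motifs were AGGTCA, the cyclic AMP response element TGACGTCA and the E-box CACGTG that clock factors bind, and no matches overlapped. The windows are chr2:130575919-130576168 (plus strand) for Oxt, chr2:130582589-130582838 (minus) for Avp, chr6:92244651-92244900 (minus) for Trh and chr16:23890845-23891094 (minus) for Sst. Capitals mark the matches.

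Oxt: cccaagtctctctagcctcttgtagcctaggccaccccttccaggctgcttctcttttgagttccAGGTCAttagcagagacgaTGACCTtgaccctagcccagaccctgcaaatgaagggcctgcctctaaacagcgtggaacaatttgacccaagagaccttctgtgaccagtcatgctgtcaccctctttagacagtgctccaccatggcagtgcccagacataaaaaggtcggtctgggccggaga

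Avp: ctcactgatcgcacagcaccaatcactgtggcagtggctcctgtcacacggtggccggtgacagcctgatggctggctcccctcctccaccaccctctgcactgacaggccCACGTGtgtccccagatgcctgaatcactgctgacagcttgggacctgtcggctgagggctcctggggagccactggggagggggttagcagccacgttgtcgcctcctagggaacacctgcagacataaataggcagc

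Trh: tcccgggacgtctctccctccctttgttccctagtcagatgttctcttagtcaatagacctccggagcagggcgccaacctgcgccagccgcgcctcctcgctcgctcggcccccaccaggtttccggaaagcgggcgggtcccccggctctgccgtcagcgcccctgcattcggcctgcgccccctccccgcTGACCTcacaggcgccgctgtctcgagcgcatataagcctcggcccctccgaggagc

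Sst: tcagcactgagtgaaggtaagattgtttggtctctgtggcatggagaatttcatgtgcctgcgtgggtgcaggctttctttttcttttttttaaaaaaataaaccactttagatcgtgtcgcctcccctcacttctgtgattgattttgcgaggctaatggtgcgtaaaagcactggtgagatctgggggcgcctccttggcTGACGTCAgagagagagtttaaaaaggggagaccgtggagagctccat

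The Oxt window held AGGTCA once on each strand, at 185 to 180 and at 166 to 161 bases before the start, and the Trh window held it once on the opposite strand, at 57 to 52. Both Ghrh windows held it once on the opposite strand, and the Avp and Sst windows did not hold these letters. Of 32851 windows of this length, 14.0% held AGGTCA. The Avp window held CACGTG at 139 to 134 bases before the start, as did 6.02% of windows, and the Sst window held TGACGTCA at 48 to 41, as did 1.55%. These are matches of letters and do not show that a factor binds.

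Totals ran from 39341074 to 46755553 counts in knockout libraries and from 36613507 to 42191925 in wild-type libraries. Ncoa1 had 1692, 1478 and 1766 counts in knockout libraries 1 to 3 and 5180, 4630 and 5406 in wild-type libraries 1 to 3, so each library matched its label. Wild-type library 1 stood apart in markers of the mammillary nuclei, at the back of the hypothalamus. Their summed level, over the 3 genes Foxb1, Barhl1 and Lmx1a, was 4.56 CPM (counts scaled to a common library size with TMM factors) in that library, against 36.8 to 44.6 in the knockout and 35.5 and 41.2 in the other wild-type libraries. In the lateral hypothalamus list, Hcrt and Pmch summed to 213 CPM there, against 425 to 585 in the knockout and 413 and 414 in the other wild-type libraries. Neuron markers varied little, with summed levels of 5828 to 6383 CPM in the knockout and 5449 to 6117 in wild type. Oligodendrocyte markers summed to 6554 to 8764 CPM in the knockout and 4028 to 5153 in wild type. In the edgeR test described below, 5 of these 8 genes were higher in the knockout at an adjusted p under 0.05 (0.242% of all tested genes were). Ependymal and tanycyte markers summed to 52.3 to 73.6 CPM in the knockout and 126 to 149 in wild type. Of these 7 genes, 4 were lower in the knockout in that test (0.592% of all tested genes were). What part any of these had in the values below was not tested.

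None of the 6 genes differed between the genotypes past the spread of the replicates. In edgeR's quasi-likelihood test, 0 of 6 had a Benjamini-Hochberg adjusted p under 0.05, where 0.834% of all tested genes did, and 0 had an unadjusted p under 0.05, where 13% of all genes did. That last count depended on the setting: over 14 alternatives the unadjusted p was under 0.05 in 7 for Sst, among them DESeq2 and both forms of limma-voom, and in 4 for Ghrh. After adjustment DESeq2 called 0 of 6, and so did limma-voom in both forms run. The 2 groups overlapped in all 6 genes, while they did not overlap in 17.6% of all genes tested. The median log2 fold change (knockout over wild type) was -0.60 over the 6 genes and 0.0042 over all genes, and over the 6 genes it was 0.085 without wild-type library 1. In whole tissue, fewer cells of a type and less RNA per cell cannot be told apart.

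**Figure D1:**
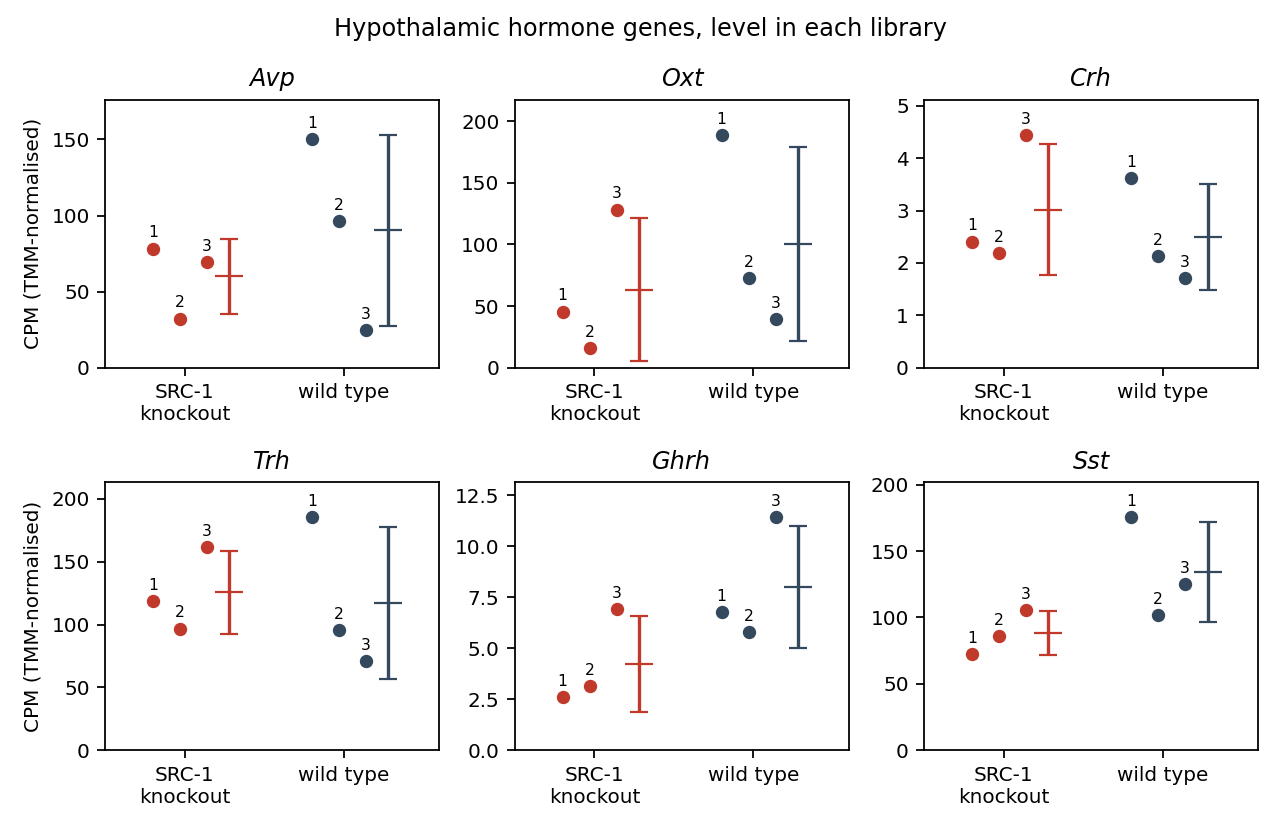
Level of each hormone gene in CPM in the 3 SRC-1 knockout and 3 wild-type libraries. Numbers beside points are replicate numbers, horizontal ticks are means and bars are SD. The groups overlap in all 6 panels, and wild-type library 1 is the highest point for Avp, Oxt, Trh and Sst.

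Avp had 78.3, 32.2 and 69.6 CPM in knockout libraries 1 to 3, against 150.0, 96.2 and 24.6 CPM in wild-type libraries 1 to 3. The highest and the lowest of the 6 values were both wild type, and the knockout values lay between them. The means were 60.0 ± 24.5 CPM in the knockout and 90.2 ± 62.9 CPM in wild type (SD, n = 3 each), a log2 fold change of -0.59 ± 0.78 (SE) with an adjusted p of 0.849. Its 95% interval, -2.70 to 1.53, spans a knockout level of 0.154 times to 2.89 times that of wild type. Without wild-type library 1 the log2 fold change was -0.0085, and without wild-type library 3 it was -1.03.

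Oxt, whose product drives milk ejection and uterine contraction, had 45.5, 16.1 and 128.3 CPM in knockout libraries 1 to 3 and 189.0, 72.7 and 39.2 CPM in wild-type libraries 1 to 3. In each genotype 1 library was high, knockout 3 and wild type 1. The log2 fold change was -0.66 ± 1.03 with an adjusted p of 0.875, and its 95% interval of -3.46 to 2.14 was the widest of the 6. It was 0.18 without wild-type library 1 and -1.70 without knockout library 3. The 2 neighbouring genes did not keep a fixed ratio. There were 1.72, 2.00 and 0.542 counts of Avp per count of Oxt in knockout libraries 1 to 3, and 0.793, 1.32 and 0.629 in wild-type libraries 1 to 3.

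Crh, the hormone that sets off release of corticotropin, was the least abundant by counts, with 101, 87 and 203 counts in knockout libraries 1 to 3 and 148, 81 and 71 in wild-type libraries 1 to 3. This was 2.41, 2.19 and 4.45 CPM in the knockout and 3.63, 2.14 and 1.71 CPM in wild type. Knockout library 3 and wild-type library 1 were again the highest of their groups. The log2 fold change was 0.28 ± 0.36, with a 95% interval of -0.55 to 1.11 and an adjusted p of 0.834. It was -0.11 without knockout library 3 and 0.65 without wild-type library 1.

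Trh, whose product sets off release of thyrotropin, had 118.8, 96.8 and 161.9 CPM in knockout libraries 1 to 3 and 185.6, 95.3 and 70.9 CPM in wild-type libraries 1 to 3. The knockout values lay inside the range of the wild-type values. The log2 fold change was 0.10 ± 0.45, with a 95% interval of -1.10 to 1.31 and an adjusted p of 0.958. It was negative without knockout library 3 (-0.12), wild-type library 2 (-0.027) or wild-type library 3 (-0.16), and 0.60 without wild-type library 1.

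Ghrh had 2.60, 3.12 and 6.92 CPM in knockout libraries 1 to 3, from 109, 124 and 316 counts. In wild-type libraries 1 to 3 it had 6.79, 5.81 and 11.4 CPM, from 277, 220 and 475 counts. Knockout libraries 1 and 2 were below all wild-type libraries, and knockout library 3 was above wild-type libraries 1 and 2. The log2 fold change of -0.92 ± 0.47 was the largest in size of the 6, with a 95% interval of -2.09 to 0.25 and an adjusted p of 0.508. It was -1.49 without knockout library 3 (adjusted p 0.0933) and -0.57 without wild-type library 3 (adjusted p 0.729).

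Sst had 72.7, 85.8 and 105.8 CPM in knockout libraries 1 to 3 and 175.6, 101.8 and 124.8 CPM in wild-type libraries 1 to 3. Only knockout library 3, just above wild-type library 2, kept the groups from being separate. The means were 88.1 ± 16.7 CPM in the knockout and 134.1 ± 37.7 CPM in wild type, with a log2 fold change of -0.61 ± 0.24. Its adjusted p, 0.393, was the lowest of the 6 genes, and its 95% interval of -1.22 to 0.011 was the narrowest. Without wild-type library 1 the log2 fold change was -0.36 (adjusted p 0.583).

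**Figure D2:**
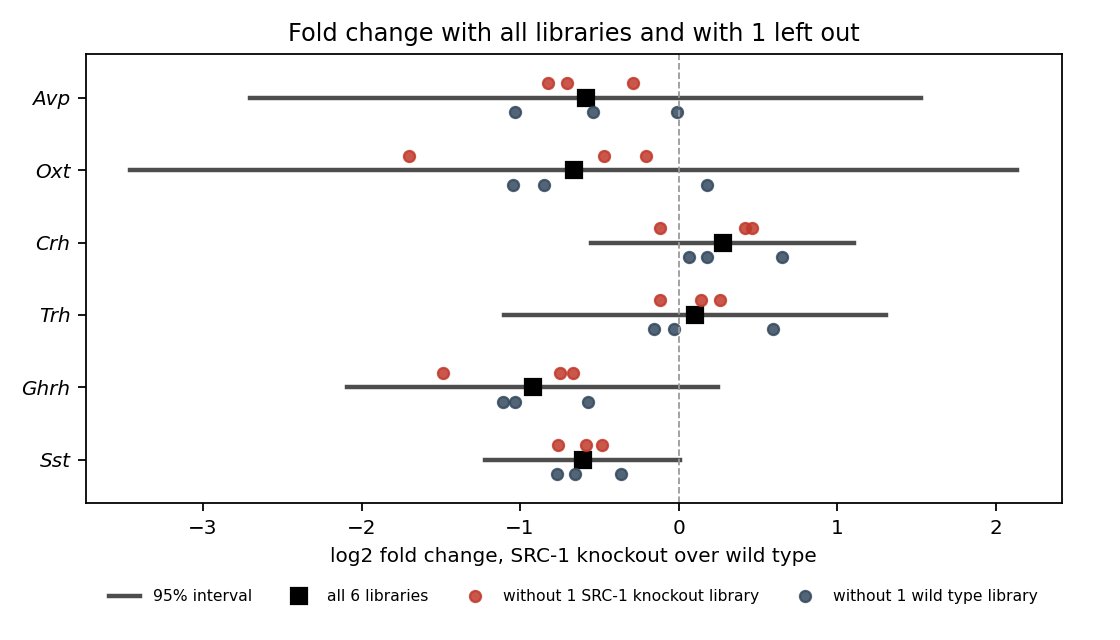
Log2 fold change of each hormone gene, SRC-1 knockout over wild type, with all 6 libraries (squares, with 95% intervals as lines) and with 1 library left out (circles, coloured by the genotype of the library left out). All 6 intervals include 0, and circles lie on both sides of 0 for Oxt, Crh and Trh.

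To compare levels between genes, CPM was divided by the exon length listed in the table. In the knockout, Avp (98.2 ± 40.0 CPM per kb), Sst (91.0 ± 17.3) and Trh (90.9 ± 23.9) were highest, followed by Oxt (27.8 ± 25.6), with Crh (2.28 ± 0.943) and Ghrh (1.59 ± 0.888) far below (SD, n = 3). In wild type the order was Avp (147.7 ± 102.9 CPM per kb), Sst (138.5 ± 39.0), Trh (84.7 ± 43.6), Oxt (44.1 ± 34.6), Ghrh (3.01 ± 1.13) and Crh (1.89 ± 0.763). Neighbours in each order differed by less than the SD of the more variable gene, except Trh and Oxt in the knockout and, in wild type, Sst and Trh, and Oxt and Ghrh. In every library Oxt stood above Crh and Ghrh on this scale. The places of Oxt and Sst depend on the length used. The table lists 2274 exon bases for Oxt and 968 for Sst, against 539 and 1723 in GENCODE's canonical transcripts. With canonical lengths Oxt came first in both genotypes, at 117.4 ± 107.9 CPM per kb in the knockout and 186.1 ± 145.9 in wild type, and Ghrh stood at 7.69 ± 4.31 and 14.6 ± 5.48. Sst then lay below Trh in both, with 51.1 ± 9.69 CPM per kb for Sst and 89.5 ± 23.6 for Trh in the knockout, and 77.8 ± 21.9 for Sst and 83.5 ± 43.0 for Trh in wild type. Together the 6 genes took 0.0238% to 0.0465% of all counts in knockout libraries and 0.0269% to 0.0718% in wild-type libraries.

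The spread between replicates was wide for genes of this abundance. The biological coefficient of variation, the scatter left after counting error and genotype are taken out, was 81.4% for Oxt, 63.3% for Avp, 39.0% for Ghrh, 37.5% for Trh, 31.2% for Crh and 20.7% for Sst. Each was set beside the genes whose mean level lay within 0.5 log2 CPM. Among 2336 such genes, 0 had a larger value than Oxt, and among 2426, 2 exceeded Avp. Trh was exceeded by 1 of 1746 and Sst by 10 of 1918, in a range where the median gene had 7.32% and 7.35%. The 2 scarce hormones were less extreme, Ghrh exceeded by 39 of 1592 genes (2.45%) and Crh by 77 of 1468 (5.25%), with medians of 14.3% and 18.0%. Both genotypes carried the spread. The highest Oxt library had 7.98 times the CPM of the lowest in the knockout and 4.83 times in wild type, and for Avp these ratios were 2.43 and 6.09. For Sst they were 1.46 and 1.72.

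**Figure D3:**
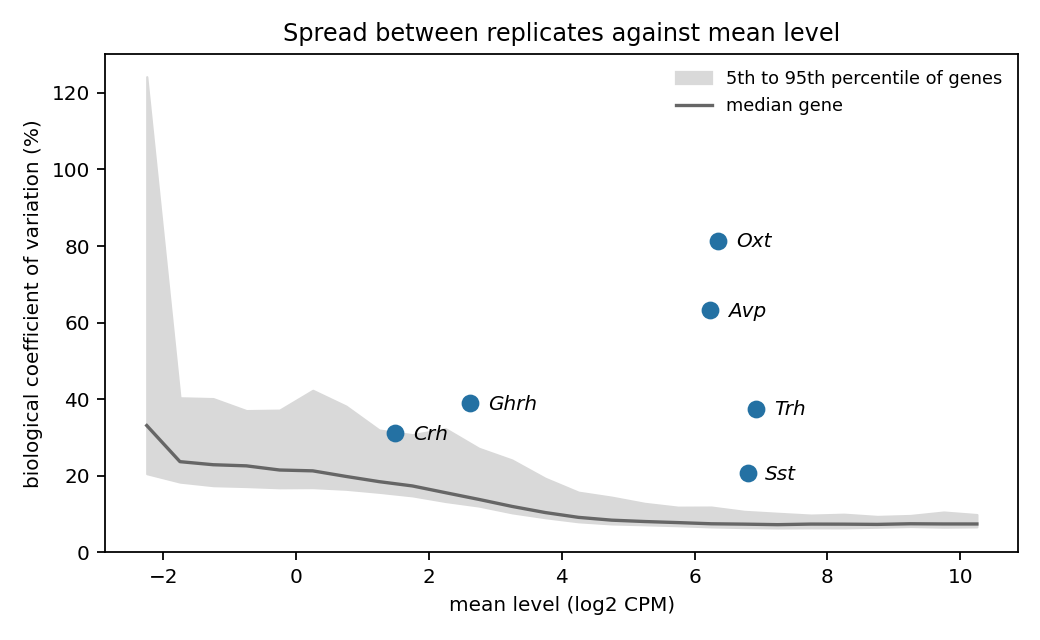
Biological coefficient of variation (percent) against mean level (log2 CPM) for the 6 hormone genes (points), with the median and the 5th to 95th percentile of all tested genes in steps of 0.5 log2 CPM. Oxt (81.4%) and Avp (63.3%) lie farthest above genes of their abundance, and Crh (31.2%) is nearest to them.

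Covariation was described over pairs of hormones. Over the 6 libraries, 13 of the 15 pairs of genes had a positive Pearson correlation of log2 CPM, with a median of 0.61. That count depended on wild-type library 1. Without it, Sst had r = -0.39 with Avp, -0.36 with Trh and -0.09 with Crh, against 0.31, 0.35 and 0.31 with all libraries. Crh with Ghrh also turned negative (-0.07), and every other pair kept its sign. The share of positive pairs among other genes was not measured. Crh and Trh, both made in the paraventricular nucleus, gave the highest value, r = 0.94 (two-sided exact permutation p = 0.00972, adjusted over 15 pairs 0.146) and Spearman's rho = 0.94 (exact permutation p = 0.0167, adjusted 0.25). Their r was 0.99 without the 2 libraries farthest from the median of Crh, knockout 3 and wild type 1, and 0.94 on deviations from the genotype means. No pair passed after adjustment, and Crh with Trh was the 1 pair of 15 with an unadjusted p under 0.05 for r. Permutations of 6 libraries can give a p for r as low as 0.00139.

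Avp and Oxt had r = 0.79 (exact permutation p = 0.0625, adjusted 0.233) and rho = 0.77 (exact permutation p = 0.103, adjusted 0.51). Their r was 0.57 without wild type 3 and knockout 2, the libraries farthest from the median of Avp, so it rested in part on those. Oxt had r = 0.75 with Trh and 0.74 with Crh, and Avp had 0.77 with Trh (adjusted exact permutation p = 0.233 for each). Avp with Trh had rho = 0.60, and r = 0.36 without wild type 3 and knockout 2. Without knockout 2 and wild type 1, the libraries farthest from the median of Oxt, Oxt had r = 0.79 with Trh and 0.88 with Crh. On deviations from the genotype means, Oxt had r = 0.94 with Crh and 0.90 with Trh. Ghrh had r = -0.13 with Avp, -0.11 with Trh, 0.03 with Crh and 0.44 with Oxt. These values rested on wild-type library 3, the highest for Ghrh, and without it they were 0.58, 0.58, 0.67 and 0.83. Ghrh and Sst had r = 0.74 (exact permutation p = 0.0847, adjusted 0.233) and rho = 0.83 (exact permutation p = 0.0583, adjusted 0.438). Their r was 0.48 on deviations from the genotype means. It was 0.57 to 0.98 with 1 library left out and 0.14 without both knockout libraries 1 and 2, so it rested in part on those.

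**Figure D4:**
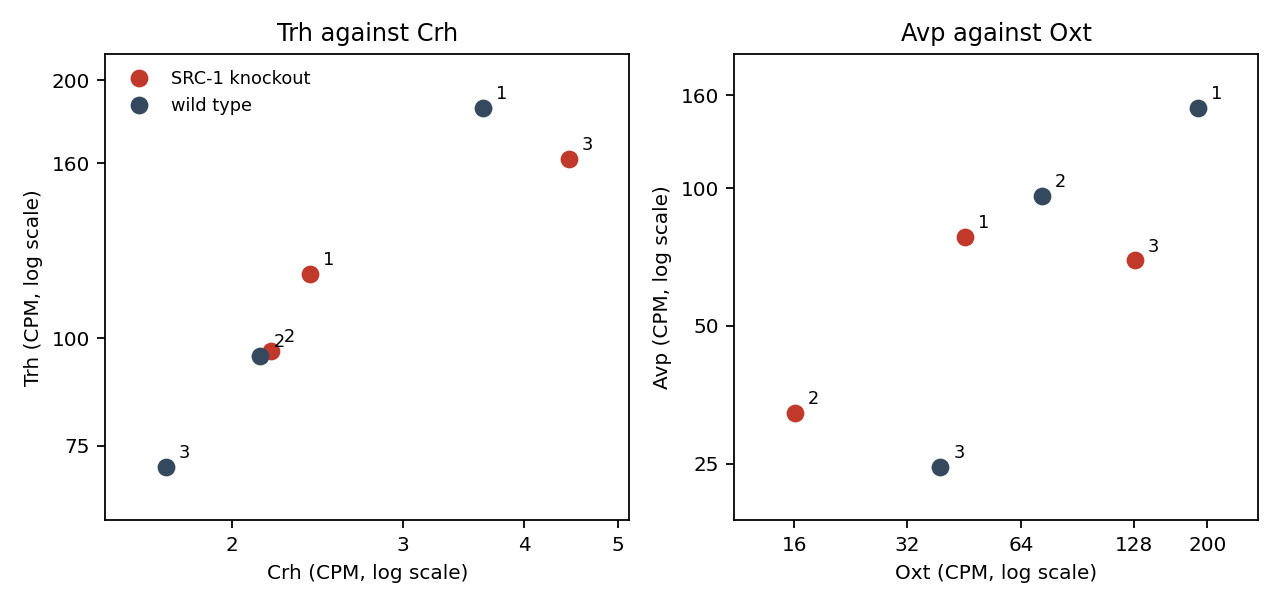
Trh against Crh (left) and Avp against Oxt (right) in CPM, both axes on a log scale, for SRC-1 knockout and wild-type libraries numbered by replicate. Trh and Crh keep nearly the same order over the 6 libraries (rho = 0.94), and Avp and Oxt do so more loosely (rho = 0.77).

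Markers of hypothalamic nuclei were set beside the hormones library by library. The 5 suprachiasmatic genes summed to 31.2, 27.2 and 38.1 CPM in knockout libraries 1 to 3 and 52.3, 41.5 and 26.3 CPM in wild-type libraries 1 to 3, with 4 of 5 log2 fold changes negative and none past the threshold. Within that list Vip, the peptide of the light-receiving part of the nucleus, had 9.01, 1.44 and 8.57 CPM in the knockout and 20.1, 9.67 and 1.80 CPM in wild type, and was singled out after its values were seen. Vip and Avp were both lowest in knockout library 2 and wild-type library 3 and both highest in wild-type library 1. The other genes of the list did not all follow. Nms, a peptide of the same nucleus, had the same lowest and highest libraries as Vip, while Prok2 and Six6 were lowest in knockout libraries 1 and 2. Lhx1, a transcription factor, was lowest in wild-type library 1 (10.2 CPM) and highest in knockout library 2 (21.1 CPM). The 5 arcuate genes summed to 36.1, 42.7 and 82.9 CPM in the knockout and 137.9, 116.4 and 184.9 CPM in wild type, with 5 of 5 log2 fold changes negative and none past the threshold. As for Ghrh, knockout libraries 1 and 2 were lowest and wild-type library 3 was highest. The 4 regulators Sim1, Otp, Pou3f2 and Arnt2, which mark the paraventricular and supraoptic nuclei, summed to 426 to 467 CPM in the knockout and 408 to 458 in wild type, mostly from the widely expressed Arnt2. None of the marker genes of these 3 lists was at 0 in any library, and the part of these markers in the hormone values was not tested.

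**Figure D5:**
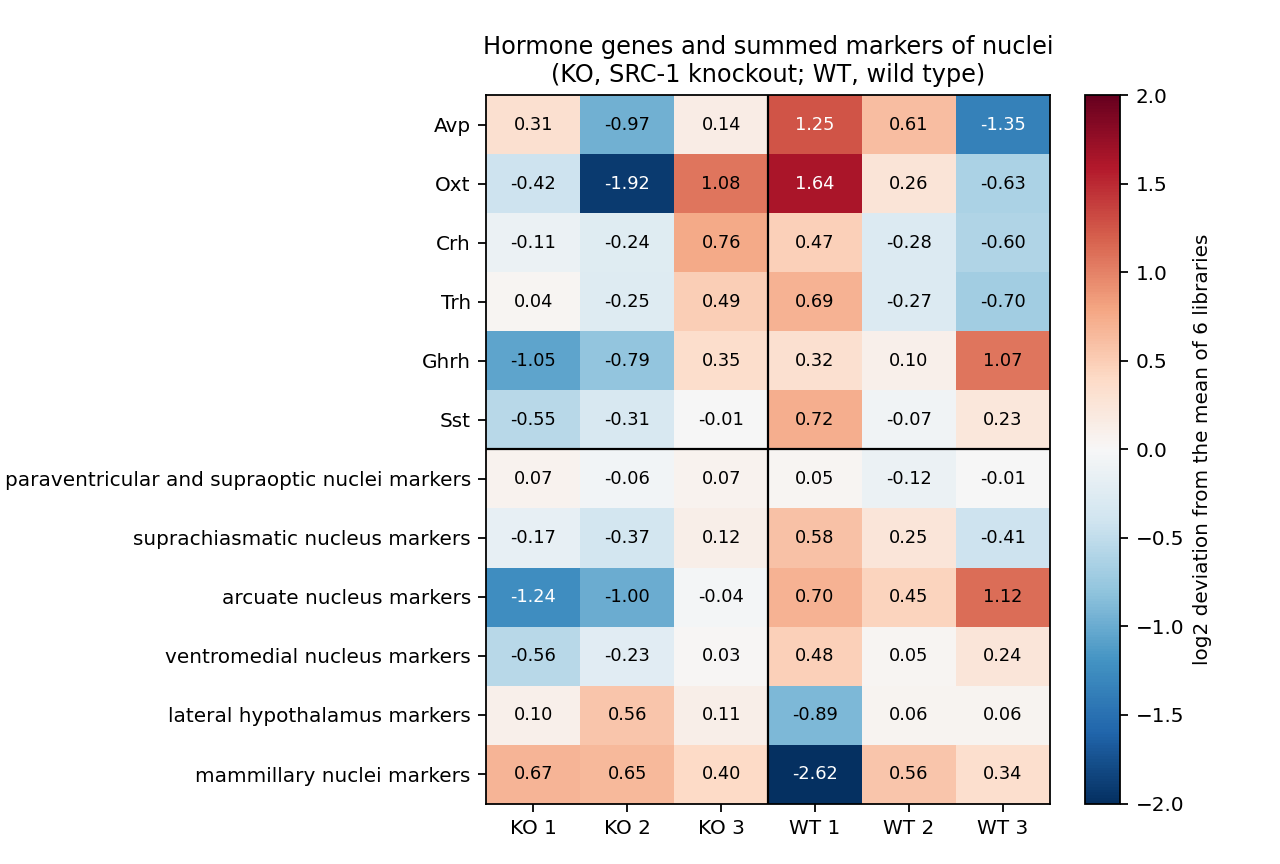
Log2 deviation of each hormone gene (top 6 rows) and of the summed CPM of marker lists of hypothalamic nuclei (lower 6 rows) from the mean of the 6 libraries, knockout libraries left and wild-type libraries right. Colours end at -2 and 2. The row of paraventricular and supraoptic markers is mostly Arnt2. Wild-type library 1 is high for Avp (1.25) and Oxt (1.64) and low for mammillary markers (-2.62), and Ghrh and the arcuate markers are lowest in knockout libraries 1 and 2.

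The genes with the most similar pattern were sought among 13815 genes with a mean of at least 1 CPM, by Pearson correlation of log2 CPM over the 6 libraries. For Avp they were Zic5, a zinc finger transcription factor (r = 0.99), Fam160a2 (0.98) and Galc, the enzyme that breaks down galactosylceramide (0.98). For Oxt they were Pmaip1, which encodes the cell death protein Noxa (1.00 when rounded from 0.9953), Fam120c (0.99) and Zxdc (0.98). Crh was followed by the forebrain transcription factor Sp8, the endothelin receptor Ednrb and Mcee, all with r = 0.99. Trh was followed by Mob1b (0.99), Zpbp (0.98) and the cation channel Trpc1 (0.98). For Ghrh they were the protease inhibitor Cst3 and the ribosomal proteins Rpl12 and Rps4x, and for Sst they were Susd1, Sumf2 and the LIM domain binding protein Ldb2, with r of 0.99 or more. Such values are common with 6 libraries, since between 67 genes (Trh) and 429 genes (Ghrh) had r above 0.9. The size of the swings differed as well. Zic5 had 1.17, 0.554 and 1.29 CPM in knockout libraries 1 to 3 and 1.99, 1.45 and 0.481 CPM in wild-type libraries 1 to 3, while Galc stayed between 29.5 and 31.3 CPM in the knockout and between 28.8 and 32.2 CPM in wild type.

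Receptors of the 6 hormones were examined next. Of 14 genes, 12 could be tested and 0 passed the adjusted threshold, 4 had an unadjusted p under 0.05 (13% of all tested genes did), and the median log2 fold change was -0.13. The somatostatin receptor Sstr1 came nearest, with 27.8, 29.5 and 30.8 CPM in knockout libraries 1 to 3 and 41.2, 32.4 and 40.8 CPM in wild-type libraries 1 to 3, a log2 fold change of -0.38 ± 0.097 (adjusted p 0.111). DESeq2 called it (adjusted p 0.0231), as did edgeR without a filter (0.0016) and without wild-type library 2 (0.0386). It passed in no other alternative. The others with a low p were Sstr4 (-0.54 ± 0.17, adjusted p 0.181), Sstr5 (-0.38 ± 0.16, adjusted p 0.336) and the second thyrotropin-releasing hormone receptor Trhr2 (0.62 ± 0.21, adjusted p 0.234). The pituitary receptors Avpr1b and Ghrhr had at most 1 and 3 counts in any library and were not tested. The oxytocin receptor Oxtr, the vasopressin receptor Avpr1a and the corticotropin-releasing hormone receptor Crhr1 had log2 fold changes of -0.18 ± 0.14, -0.09 ± 0.16 and 0.37 ± 0.22.

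Of 4 proteins that bind or degrade these hormones, 0 passed, with a median of -0.13. Lnpep, the oxytocin-cleaving aminopeptidase, had 44.4, 18.4 and 52.6 CPM in knockout libraries 1 to 3 and 51.7, 41.8 and 50.3 CPM in wild-type libraries 1 to 3. Knockout library 2, with the least Oxt, also had the least Lnpep, a match singled out after the values were seen. In wild type the match did not hold. Wild-type library 3 had less Oxt (39.2 CPM) than wild-type library 2 (72.7 CPM) but more Lnpep. The peptidase Mme (0.53 ± 0.34), the binding protein Crhbp (-0.21 ± 0.37) and Trhde, which degrades thyrotropin-releasing hormone (-0.05 ± 0.14), did not pass.

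Other releasing factors and relatives of the 6 hormones numbered 9, of which 6 were tested, 0 passed and 2 had an unadjusted p under 0.05, beside 13% of all genes, with a median of 0.0056. Kiss1, which drives the reproductive axis, had 0.214, 0.504 and 0.833 CPM in knockout libraries 1 to 3 and 1.35, 1.16 and 1.47 CPM in wild-type libraries 1 to 3. Its groups did not overlap, and its log2 fold change was -1.34 ± 0.39 (adjusted p 0.157). Kiss1 passed in edgeR without a filter (adjusted p 0.00238), a setting with 966 calls over all genes, and in no other alternative. Npvf, the gonadotropin-inhibiting peptide, gave -1.25 ± 0.48 (adjusted p 0.37), Ucn3, a relative of Crh, 0.74 ± 0.73, and Adcyap1, a peptide that raises cyclic AMP, -0.07 ± 0.091. Ucn, Ucn2 and Cort had at most 2, 4 and 10 counts in any library and were not tested.

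Among 11 regulators of the hormone neurons, 0 passed and 0 had an unadjusted p under 0.05, with a median of 0.0044. Sim1, without which mice lack the paraventricular and supraoptic neurons, had a log2 fold change of 0.33 ± 0.17, and its paralog Sim2 0.57 ± 0.27. Creb3l1, a factor that acts on the Avp promoter in the rat, had -0.33 ± 0.15, and Hmx3, which with Hmx2 is needed for Ghrh in the mouse, had -0.31 ± 0.17. Adjusted p ran upward from 0.4 in this list.

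Peptides and enzymes made in the same neurons, 8 in all, gave 0 calls, 2 with an unadjusted p under 0.05, beside 13% of all genes, and a median of -0.18. Pdyn, the dynorphin precursor that vasopressin neurons also make, had 45.2, 53.2 and 66.2 CPM in knockout libraries 1 to 3 and 99.1, 74.6 and 100.8 CPM in wild-type libraries 1 to 3. It was highest in wild-type library 3, where Avp was lowest (24.6 CPM). The groups of Pdyn did not overlap, and the log2 fold change was -0.74 ± 0.17 with an adjusted p of 0.132 in edgeR and 3.38e-05 in DESeq2. In limma-voom with quality weights the adjusted p was 0.034, and Pdyn passed in no other alternative. Penk, the enkephalin precursor (-0.23 ± 0.074), galanin, Gal (-0.45 ± 0.21), and Cartpt (-0.46 ± 0.27) did not pass.

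Of 12 genes of prohormone processing and secretory granules, 1 passed and the median was -0.10, beside 0.592% of all tested genes that passed with a lower level in the knockout. The granin Vgf fell in the knockout, with 178, 153 and 167 CPM in knockout libraries 1 to 3 and 217, 208 and 232 CPM in wild-type libraries 1 to 3 (log2 fold change -0.40 ± 0.077, adjusted p 0.0482). It passed in none of the 6 fits that left 1 library out. The amidating enzyme Pam, which completes vasopressin, oxytocin and thyrotropin-releasing hormone, had -0.22 ± 0.10, the carboxypeptidase Cpe 0.20 ± 0.11 and chromogranin A, Chga, -0.14 ± 0.077, with adjusted p of 0.42, 0.505 and 0.518.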

How the data were processed

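The authors deposited 1 table of raw counts per gene, not normalized. Alignment was by STAR 2.7.10a to GRCm39, per the submitters' processing notes, with counting over exons of the mm39 RefSeq annotation with featureCounts, version 2.0.0 per the file headers and 2.0.3 per the submitters' processing notes. The command was given the paired-end option and no strand, multi-mapping or multi-gene option, per the file headers. It counts pairs in the first version and may count single reads in the other, which was not resolved. The gene length is the deposited value in the same table, in the category of other units. Libraries were made with TruSeq chemistry from RNeasy-extracted RNA, per the labels. Each column was tied to its sample by library code, and 0 value columns were unused.
 Replicates were compared before averaging. The chi-square per degree of freedom was 8.87 to 18.9 between libraries of a group, so none was a repeat of another. Genotypes were compared in R 4.3.3 with edgeR 4.0.16, using TMM factors, a minimum count of 10, robust quasi-likelihood F-tests and Benjamini-Hochberg adjustment over all 20257 genes. SE is the log2 fold change over the square root of F, and 95% intervals use the t quantile. Log2 CPM used a prior count of 2. Exact permutation tests of single values cannot go below 0.1 with 3 against 3, so none was made between groups. The edgeR script was tested on simulated data. Alternatives were RLE factors, library totals, no filter, 1 CPM in 3 libraries, DESeq2 1.42.0, limma-voom (limma 3.58.1) with and without quality weights, each library left out, and a replicate block. Canonical transcript lengths were added after seeing the data.

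The genes, lists and tests were chosen with earlier results of these data known. Named were the 6 hormone genes, up to 4 genes with the lowest p per list and any past the threshold, and the 3 genes most correlated with each hormone among genes with at least 1 CPM on average and no clone or pseudogene symbol. Avpr1a, Avpr1b, Ghrhr, Oxtr, Crhr1, Ucn, Ucn2 and Cort were added by role. Marker lists were reported as summed CPM.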

Additional observations from a re-analysis of the deposited data

How the results depend on the processing

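Of the 6 hormone genes, 0 passed under any alternative run, with the exception of Ghrh under the replicate block (1 of 6, log2 fold change -0.99 ± 0.15, adjusted p 0.0465). Over the alternatives, adjusted p for Ghrh ran from 0.0465 to 0.862. The samples share only a replicate number: deviations from the group means correlated at -0.21, 0.35 and 0.22 for the 3 numbers, 3 of 6 libraries correlated best with their own number, and the block gave 155 calls over all genes against 169 without it. With 1 library left out, log2 fold changes ran from -1.03 to -0.0085 for Avp, -1.70 to 0.18 for Oxt, -0.11 to 0.65 for Crh, -0.16 to 0.60 for Trh, -1.49 to -0.57 for Ghrh and -0.77 to -0.36 for Sst. Signs were reversed for Oxt without wild-type library 1 (0.18), for Crh without knockout library 3 (-0.11), and for Trh without knockout library 3 (-0.12), wild-type library 2 (-0.027) or wild-type library 3 (-0.16) and with quality weights (-0.036). Over all genes DESeq2 called 821, limma-voom 103 and its form with quality weights 401, while edgeR called 66 on library totals, 966 without a filter, 84 under the stricter filter, and 36 to 260 with 1 library left out. Among genes of the pathway lists 1 passed, against 3 with no filter or DESeq2, 2 with quality weights and 0 with the stricter filter or limma-voom, and 0 to 1 with 1 library left out. The causes were not tested. No pair of hormones passed with library totals or a prior count of 0.5. Crh and Ghrh rest on 71 to 475 counts a library, and the other 4 hormones on at least 638.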

Other observations

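Summed levels of the other marker lists are given as values. Pituitary genes summed to 23.2 to 42.9 CPM in the knockout and 25.1 to 46.6 CPM in wild type. Of 8 tested genes, 1 was lower in the knockout at an edgeR adjusted p under 0.05 (0.592% of all tested genes were). Their log2 fold changes were negative in 6 of 8, with a median of -1.63. Genes of the meninges summed to 54.2 to 55.4 CPM in the knockout and 61.6 to 229.6 CPM in wild type, with 1 of 6 lower in the knockout. Genes of the ventromedial nucleus summed to 44.2 to 66.3 CPM in the knockout and 67.2 to 90.6 CPM in wild type. Those of cortex and hippocampus summed to 68.0 to 78.7 CPM in the knockout and 78.6 to 97.8 CPM in wild type. In that list 1 of 5 tested genes, the cortical transcription factor Tbr1, was called higher in the knockout (0.242% of all tested genes were). It had 4.08 to 5.98 CPM in the knockout and 0.792 to 1.37 CPM in wild type (edgeR adjusted p 0.00584). Of the 5 log2 fold changes, 3 were negative. Genes of the thalamus summed to 31.8 to 45.7 CPM in the knockout and 31.7 to 35.1 CPM in wild type, and those of striatum to 182 to 215 CPM in the knockout and 204 to 221 CPM in wild type. Their part in the hormone values was not tested.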
